A study of Rattus norvegicus with 40 samples.

Results

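This account describes the livers of the 10 vehicle-dosed rats: how bright each transcript was, how much it differed from animal to animal, and which of the variable genes moved together. The 10 vehicle samples were taken by their label from 40 livers in all, and no liver from a dosed group entered any value. The study's other 3 groups received GW7647, an agonist of the nuclear receptor PPAR-alpha, in doses between 0.1 and 10 mg/kg by mouth, and the vehicle livers are its baseline. The rats were adult males of the outbred strain Sprague Dawley SD:CD, gavaged once a day for 4 days with vehicle alone, on NIH-07 feed and a 12 h light-dark cycle, and the livers were taken 24 h after the last gavage. Liver RNA from each animal was labelled with a 3 prime in vitro transcription kit and hybridized to 1 Affymetrix array. The deposited unit is the log2 GCRMA expression value of a probe set, 1 unit being a doubling, and every value below is on that scale unless a fold is named. Of 13437 named genes, 5199 had a mean of log2 5 or more over the 10 animals, and the spread was described among those. Genes were chosen by their level or spread in these same livers, so their levels, SDs and mutual correlations are descriptions and carry no test.

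Hepatocytes make up most of the liver's mass and fill their messenger pool with secreted plasma proteins, lipoprotein components and enzymes of intermediary metabolism. A smaller set of liver genes follows signals that change within hours: insulin and glucagon with feeding, glucocorticoids and the clock with time of day, sterol content through the SREBP factors, and, in male rats, growth hormone, which is released in pulses and acts through STAT5. Samples taken from different animals at a single moment can therefore differ in such genes without any treatment. The labels do not give each animal's time of sampling or feeding state, so neither could be set against the values.

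All 11 measured hepatocyte markers had a mean of log2 5 or more, with a median SD of 0.070. Of the other cells a liver holds, 10 of 12 Kupffer cell (resident macrophage) markers, 6 of 8 sinusoidal endothelial markers and 4 of 14 stellate cell markers reached that level. None of 8 cholangiocyte, 7 neutrophil or 9 muscle markers did, while 2 of 9 erythroid and 2 of 8 adipose markers did. The pancreas list had 1 of 14 at that level, Cela1 (7.28 ± 0.31, SD, n = 10), an elastase that is also made outside the pancreas, and the lymphocyte list had 1 of 15, the chemokine Ccl5 (6.85 ± 0.34). In bulk tissue, fewer cells of a type and less RNA per cell cannot be told apart.

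The array of animal 1 stood apart from the other 9. The mean of its 24 poly-A control probe sets, for transcripts added to the RNA before labelling, was 6.50, against 5.15 to 5.75 in the others. Its difference between the 3 prime and 5 prime actin control probe sets was 2.20, against 2.68 to 3.14. Its mean correlation with the other arrays over the 5199 genes was 0.955, against 0.972 to 0.979. It was the highest array for 1551 of those genes and the lowest for 1547, more than any other animal at either end. Where leaving it out moved a value below by much, both values are given.

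**Figure D1:**
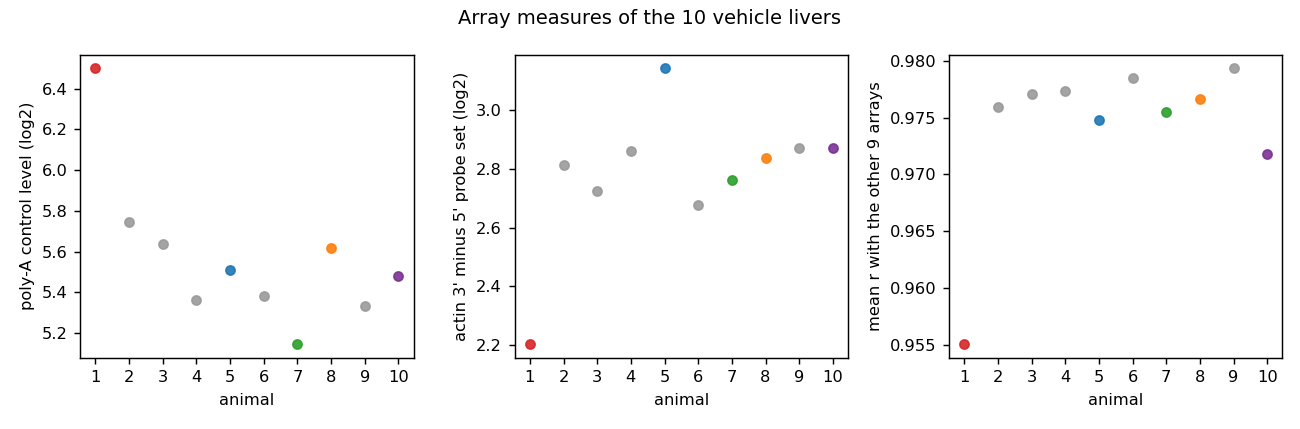
Poly-A control level (log2), actin 3 prime minus 5 prime probe set difference (log2) and mean correlation with the other 9 arrays, 1 point per vehicle animal. Animal 1 has the highest poly-A level (6.50), the lowest actin difference (2.20) and the lowest mean correlation (0.955).

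The brightest probe set was that of albumin, Alb, the main plasma protein, at 13.52 ± 0.023 (SD, n = 10). Its lowest, median and highest animals were at 13.48, 13.52 and 13.56, a 1.06-fold range. Below it came Apoc3 (13.04 ± 0.052), an apolipoprotein of triglyceride-rich particles, Serpina1 (12.98 ± 0.053), the alpha-1 antitrypsin of plasma, Hp (12.93 ± 0.053), the haemoglobin carrier haptoglobin, and Ambp (12.88 ± 0.032), the precursor of alpha-1 microglobulin and bikunin. The carriers Ttr for thyroid hormone, Gc for vitamin D and Rbp4 for retinol stood at 12.81 ± 0.055, 12.75 ± 0.054 and 12.48 ± 0.048. This order is one of probe set signals, which depend on each probe set's sequence and flatten near the top of the scale, and it does not rank the transcripts by abundance.

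Of the 25 brightest genes, most code for proteins that hepatocytes secrete: the fibrinogen chains Fgg and Fgb, complement C3, the fetuin Ahsg, vitronectin (Vtn), apolipoprotein Apoe, the inhibitors Serpina3l and Serpina3c and the inter-alpha-trypsin inhibitor chain Itih3. The others were intracellular. Gpx1, a glutathione peroxidase, was at 12.65 ± 0.082, and Mgst1, a microsomal glutathione transferase, at 12.61 ± 0.037. The fatty acid carrier Fabp1, a known PPAR-alpha target, was at 12.54 ± 0.075, between 12.45 and 12.67. The mitochondrially encoded oxidase subunits COX2 and COX1 were at 12.61 ± 0.096 and 12.56 ± 0.12. Car3, a carbonic anhydrase that is higher in male than in female rat liver, had the largest SD of the 25, 0.17, with its lowest, median and highest animals at 12.35, 12.66 and 12.81. Even Car3 stayed within a 1.37-fold range of signal. Since signals flatten near the top of the scale, these SDs and fold ranges may understate the differences between animals in transcript. After quantile normalization Alb had an SD of 0, since its probe set was then the brightest on every array.

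Over the 5199 genes the median SD between animals was 0.207, the 90th percentile 0.367 and the 99th percentile 0.717. The median SD fell with level, from 0.229 over 2814 genes of mean 5 to 7, to 0.194 over 1590 genes of 7 to 9, 0.157 over 626 genes of 9 to 11 and 0.0973 over 169 genes above 11. With 10 animals, the 95% chi-square interval of an SD runs from 0.688 to 1.83 times its value. Only 172 genes had an SD of 0.5 or more and 27 genes (0.519%) an SD of 1 or more.

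**Figure D2:**
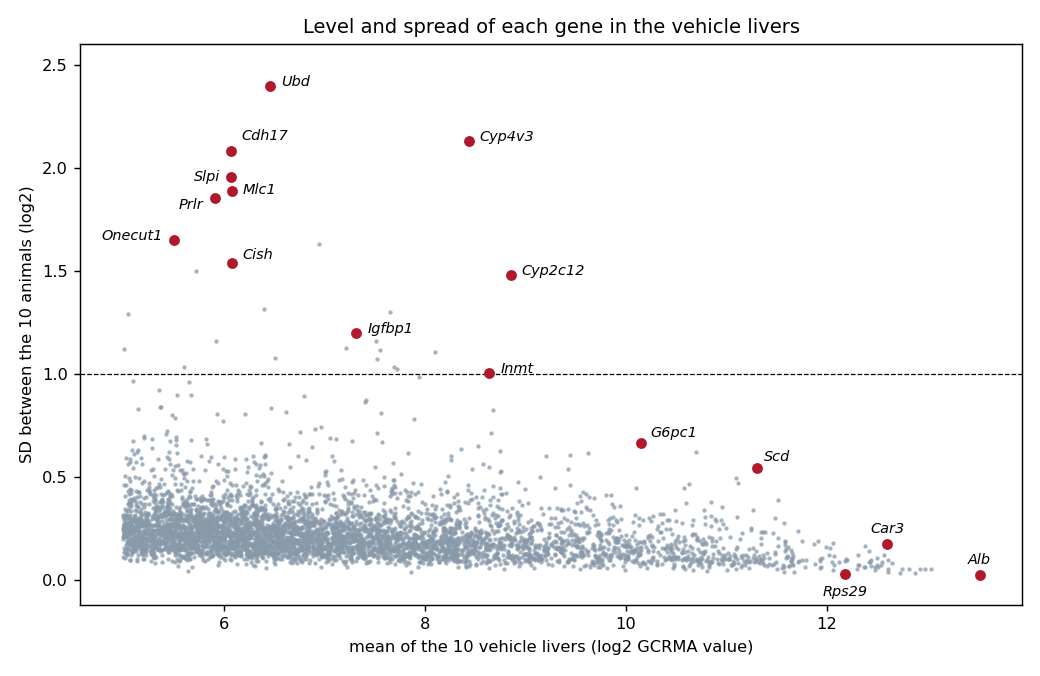
Mean (log2 GCRMA value) against SD between the 10 vehicle animals (log2) for the 5199 genes of mean 5 or more, 1 point per gene, with 16 named genes in red and a dashed line at an SD of 1. The cloud narrows with level, Alb lies at an SD of 0.023, and Ubd (2.40) and Cyp4v3 (2.13) lie highest.

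The steadiest genes were not all bright. After Alb, the smallest SDs were those of the ribosomal protein gene Rps29 (12.19 ± 0.029), Ambp, Apoe, the mitochondrial ribosomal protein gene Mrps26 (7.86 ± 0.037), Mgst1, the tetraspanin Cd81 (11.57 ± 0.038), Itm2b (11.68 ± 0.039), the FGF receptor relative Fgfrl1 (5.64 ± 0.042) and the proteoglycan Sdc2 (10.80 ± 0.043). By list, against the median SD of 0.207 over all 5199 genes, the members of mean 5 or more had a median SD of 0.0635 for secreted plasma proteins (23 genes), 0.0980 for coagulation (15), 0.103 for ribosomal proteins (22) and 0.105 for the respiratory chain (33). These lists are bright, with median levels of 12.48, 11.07, 10.86 and 10.39 over their measured members, and the medians of all genes at those levels, given above, are also low (0.0973 above 11 and 0.157 from 9 to 11). No member of these 4 lists had an SD of 0.5 or more. At the other end stood 11 immediate-early genes, which respond within minutes to stress and growth signals, with a median SD of 0.657, all 11 above the median of all genes. The 13 glucocorticoid and fasting genes had a median of 0.550 (12 above), 12 interferon response genes 0.435 (10 above), 16 MHC genes 0.376 (13 above), 9 clock genes 0.367 (8 above), 20 cholesterol synthesis genes 0.343 (16 above) and 16 fatty acid synthesis genes 0.342 (14 above).

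The immediate-early list was led by Gadd45g, a growth arrest and stress gene, whose lowest, median and highest animals were 4.58, 7.66 and 8.15. Animal 5 alone lay below 6, and without it the SD fell from 1.13 to 0.68. The transcription factor gene Jun ran from 6.28 over 7.37 to 8.90, highest in animal 3. Dusp1, a phosphatase that turns off MAP kinases, ran from 7.56 over 8.88 to 9.91, and Egr1, a zinc finger factor, from 4.32 over 5.74 to 6.29. Jun, Dusp1 and Ier2 shared their 4 highest animals (2, 3, 4 and 7). The pair tested in this list, Egr1 and Ier2, another immediate-early gene (7.27 ± 0.28), had r = -0.42 over the 10 animals (rho = -0.42, permutation test, adjusted p = 0.49 over 20 pairs), and r = -0.62 without animals 4 and 6. Several members, including Nr4a1 (2.44) and Atf3 (2.84), lay below log2 5 in these livers.

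Ubd, a ubiquitin-like modifier that inflammatory cytokines induce, had the largest SD of all, 6.46 ± 2.40. Its lowest, median and highest animals were at 2.64, 7.54 and 8.87. Animals 2, 3 and 5 lay at 3.43 or below and the other 7 at 7.07 or above, so that the range was 75.2-fold and nearly empty in its middle. Values near log2 2 to 3 are close to the floor of GCRMA, and folds taken from there depend on its background correction.

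Several more genes were low in a few animals and high in the rest. Cyp4v3, a cytochrome P450 of the fatty acid hydroxylase family, was at 2.44 in animal 7 and between 8.58 and 9.51 in the other 9. Its SD was 2.13 with animal 7 and 0.33 without it. The gene's second probe set, dimmer at 4.59 ± 0.35, was also lowest in animal 7, at 3.73, but its highest value was only 5.02. It correlated with the first at r = 0.84, a value on which animal 7 weighs heavily, and does not show a drop of the same size. Cdh17, the liver-intestine cadherin, was below 3 in animals 2 and 3 and ran from 4.71 to 8.47 in the others. Mlc1, a membrane protein best known from astrocytes, was at 2.90 in animal 4 and 2.42 in animal 8, against 6.03 to 7.84. Marveld1 split 6 to 4: animals 2, 4, 6, 7, 8 and 10 lay between 4.42 and 4.81 and animals 1, 3, 5 and 9 between 7.11 and 7.87, with none between. Evc, a protein of the primary cilium, was at 3.52 or below in animals 5, 8 and 9 and at 5.49 or above in the other 7. The sets of low animals differed from gene to gene. Bco1, which cleaves beta-carotene, was at 2.96 in animal 8 and at 5.55 or above elsewhere, and its SD of 1.16 fell to 0.54 without that animal.

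**Figure D3:**
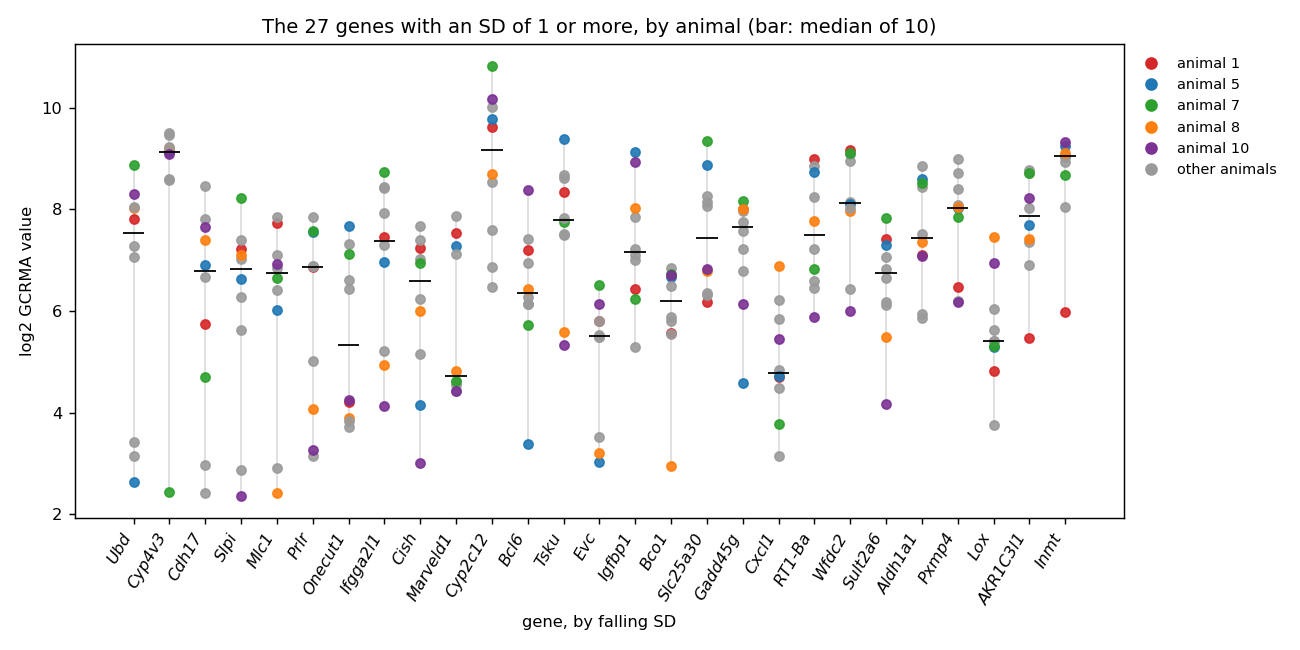
Log2 GCRMA value of the 27 genes of mean 5 or more with an SD of 1 or more, by falling SD, 1 point per vehicle animal with animals 1, 5, 7, 8 and 10 coloured and a bar at the median. Ubd, Mlc1, Marveld1, Evc and Onecut1 fall into a low and a high set of animals, and Cyp4v3 (animal 7), Bco1 (animal 8) and Inmt (animal 1) have a single low animal.

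Members of the list of male pattern and growth hormone response genes made up 4 of the 27, out of 21 of that list at log2 5 or more. Most of the 21 were steadier, with a median SD of 0.278 and 5 genes at an SD of 0.5 or more. Prlr, the prolactin receptor, was at 5.91 ± 1.85, with 4 animals (4, 6, 8 and 10) at 5.02 or below and 6 at 6.86 or above. Its 2 other probe sets followed it at r = 0.98 and 0.91. Cish, a feedback inhibitor that STAT5 induces, ran from 3.0 in animal 10 over a median of 6.59 to 7.67 in animal 4. Bcl6, a repressor that opposes STAT5 in male liver, ran from 3.38 in animal 5 to 8.38 in animal 10, and its SD of 1.32 fell to 0.82 without animal 5. Cyp2c12, the P450 that is female-predominant in rats, was at 8.86 ± 1.48 in these males, between 6.47 in animal 4 and 10.83 in animal 7. It has close relatives in the Cyp2c family, whose transcripts its probes might also bind. Socs2, another STAT5-induced inhibitor, spread less, 5.29 ± 0.64, and its pair with Cish did not pass (r = 0.11, rho = 0.15, permutation test, adjusted p = 0.861). Without animals 5 and 10, the farthest from the Cish median, r was 0.50. Igf1 and Igfals, the hormone's targets that code for a growth factor and its carrier, had r = 0.17 (permutation test, adjusted p = 0.823), 0.51 without animal 1 and 0.07 without animals 2 and 6.

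Onecut1, the liver transcription factor HNF-6, split into 5 animals (1, 6, 8, 9 and 10) between 3.73 and 4.25 and 5 between 6.43 and 7.66. Slc25a30, a mitochondrial carrier, split between the same 5 and 5 animals, at 6.17 to 6.82 and 8.06 to 9.35. Their correlation was 0.95, and it was 0.95 both without animal 1 and without the 2 animals farthest from the Onecut1 median. A second probe set of each gene followed the first, at r = 0.99 for Onecut1 and 0.97 for Slc25a30. Of all genes at log2 5 or more, those most like Onecut1 were Brd2 (r = 0.96, SD 0.35), Slc25a30, Dock8 (0.93) and the sterol demethylase Cyp51 (0.92).

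Igfbp1, an insulin-suppressed binding protein that fasting raises, was at 7.32 ± 1.20, with its lowest, median and highest animals at 5.29 (animal 3), 7.16 and 9.13 (animal 5). The gluconeogenic enzyme gene G6pc1, at 10.15 ± 0.67, ran from 9.40 to 11.23. Igfbp1 and the gluconeogenic gene Pck1 did not pass as a pair (r = 0.07, rho = 0.33, permutation test, adjusted p = 0.861), and without animals 3 and 5 r was 0.70. Pck1 and G6pc1 did not pass either (r = 0.23, permutation test, adjusted p = 0.793), with r = 0.52 without animals 5 and 7. Pck1 and Tat, both glucocorticoid-induced, had r = -0.46 (permutation test, adjusted p = 0.449), which was -0.89, past the threshold, without animal 6 and -0.04 without animals 5 and 7. These values thus depend on 1 or 2 animals. A pair that missed the threshold over 10 animals is not thereby shown to vary apart.

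Drug and redox enzymes formed another part of the variable genes. Nqo1, a quinone reductase of the Nrf2 response, was at 5.37 in animal 10 and between 7.56 and 8.68 in the other 9, so that its SD of 0.99 fell to 0.41 without animal 10. Sult2a6, a hydroxysteroid sulfotransferase, was also lowest in animal 10, at 4.17, with a median of 6.74. Aldh1a1, a retinal dehydrogenase, ran from 5.87 over 7.43 to 8.86. The aldo-keto reductase gene AKR1C3l1 (7.73 ± 1.03) was at 5.46 in animal 1, its lowest, and its SD was 0.68 without animal 1. Its relative Akr1c1 (7.89 ± 0.78) was lowest in animal 7. Inmt, an amine methyltransferase, was at 5.98 in animal 1 and at 8.05 to 9.32 in the rest, with an SD of 1.00 with animal 1 and 0.38 without it. Most members of these enzyme lists were steadier: the 24 drug-metabolising P450 genes had a median SD of 0.199, with 1 gene, Cyp2c12, at 1 or more, and the 19 conjugation enzymes 0.261, with 1.

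A second probe set was on the array for 18 of the 60 most variable genes, 22 further probe sets in all. Of these, 16 followed the first at r = 0.7 or more, among them those of Cish (0.95), Pxmp4 (0.99), Lox (0.98), Jun (0.95 and 0.99), Dusp1 (0.97) and Per2 (0.92). For 4 the correlation was below 0.5. They were 3 of RT1-Ba, an MHC class II alpha chain (-0.32, 0.25 and 0.36), and 1 of Rgs3, a G protein regulator (0.46). MHC genes differ between outbred animals and have near-identical relatives, so the RT1-Ba level (7.55 ± 1.12, from 5.88 to 8.98) is uncertain.

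Among the 60 genes with the largest SD, 41 of 1770 pairs (2.32%) had an absolute r of 0.8 or more, 30 of them positive and 11 negative. Over all pairs of the 5199 genes the share was 3.16%, the larger of the 2. Animal 1 decides that order: without it the share was 3.16% among the 60 most variable genes and 1.45% over all pairs. With any other single animal left out the share over all pairs stayed the larger, at 4.12% to 4.94% against 1.69% to 3.90%. Average linkage on 1 - r, cut at 0.4, gave 6 sets of at least 3 genes with 32 members, and left 28 genes in none.

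**Figure D4:**
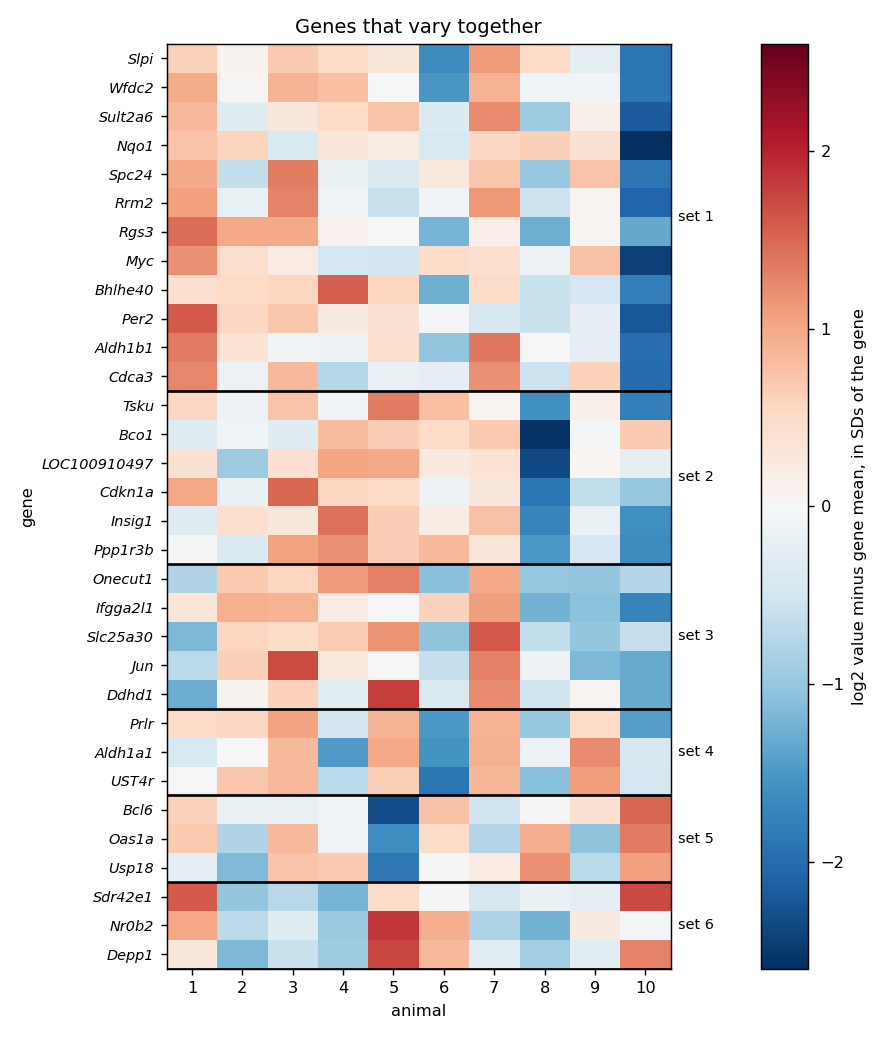
Level of the 32 genes in the 6 co-varying sets (rows) in the 10 vehicle animals (columns), as the log2 value minus the gene's mean in units of its SD (colour). Animal 10 is lowest over set 1 (-2.02 on average), animal 8 over set 2 (-1.94) and animal 5 over set 5 (-1.93).

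The largest set had 12 genes: Slpi, Wfdc2, Sult2a6, Nqo1, Spc24, Rrm2, Rgs3, Myc, Bhlhe40, Per2, Aldh1b1 and Cdca3. Their pairwise r ranged from 0.40 to 0.95 with a median of 0.73, and the median was 0.70 without animal 1. Animal 10 lay 2.02 gene SDs below the mean on average, and animal 1 lay highest, at 1.04. No median was taken without animal 10. Some of the set's ties weakened without the 2 animals farthest from the median of the pair's more variable gene. Slpi and Bhlhe40 went from r = 0.82 to 0.32 (rho = 0.54), and Nqo1 and Myc from 0.82 to 0.37 (rho = 0.49). Sult2a6 and Aldh1b1 went from 0.84 to 0.79 (rho = 0.76). Of the 60 most variable genes, animal 10 was the lowest animal for 21, and of all 5199 genes for 533. Its poly-A level (5.48) and actin difference (2.87) were inside the range of the other arrays, while its mean correlation with them (0.972) was the second lowest and its score on the first principal component (-11.3) the lowest. The set's average had r = 0.32 with the poly-A level and -0.40 with the actin difference, and limma called none of its genes on either. The part of array quality in these genes was not tested beyond that.

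Slpi and Wfdc2 are secreted proteins that share the whey acidic protein domain, and they had the highest correlation of the 1770 pairs, 0.95 (rho = 0.83). Slpi was at 2.86 and 2.35 in animals 6 and 10 and from 5.62 to 8.22 in the other 8. Wfdc2 was at 6.42 and 6.01 in the same animals and from 7.97 to 9.17 in the others. Without the 2 animals farthest from the Slpi median, r was 0.73. Within the same set, the proliferation genes Rrm2, a ribonucleotide reductase subunit, Spc24, of the kinetochore, and Cdca3, a mitotic gene, were tied to each other at 0.91 to 0.94. Rrm2 was at 4.95 in animal 10, with a median of 6.74 and a highest value of 7.95 in animal 3. Without the 2 farthest animals the Rrm2 and Cdca3 correlation was 0.88 and that of Spc24 and Rrm2 0.82. Of 31 cell cycle genes measured, only 4 reached log2 5.

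The second set had 6 members, among them Insig1, Tsku, a secreted hepatic protein, Ppp1r3b, which targets a phosphatase to glycogen, and Cdkn1a, a cell cycle inhibitor. Animal 8 was lowest (-1.94 SDs on average), then animal 10 (-0.93). Ties in this set weakened without the 2 animals farthest from the median of the pair's more variable gene. The r with Ppp1r3b went from 0.83 to 0.36 for Tsku, from 0.88 to 0.59 for Insig1 and from 0.82 to 0.69 for Cdkn1a. The third set held Onecut1, Slc25a30, Ifgga2l1, Jun and the phospholipase Ddhd1. The fourth held Prlr, Aldh1a1 and UST4r, with Prlr and UST4r at r = 0.89. The fifth joined Bcl6 to the interferon-induced genes Oas1a (5.65 ± 0.96) and Usp18 (5.99 ± 0.77), all lowest in animal 5. The sixth held Sdr42e1, Nr0b2, the bile acid-induced repressor SHP, and Depp1, highest on average in animal 5 (1.36 SDs).

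Among the 11 strong negative pairs, the lowest r was -0.90, between Mtmr7, a lipid phosphatase relative, and Nr0b2. Igfbp1 ran against Rrm2 (-0.89) and Spc24 (-0.80), and against Cish (-0.82). Cyp7a1, which sets the pace at which cholesterol is turned into bile acids (6.97 ± 0.74, from 5.78 in animal 4 to 8.12 in animal 8), ran against Insig1 at r = -0.87 (rho = -0.94). Without the 2 animals farthest from the median of the more variable gene of the pair, these correlations were -0.78, -0.95, -0.85, -0.56 and -0.79. Cyp7a1 and Nr0b2 did not pass as a pair (r = 0.16, permutation test, adjusted p = 0.823), and r was -0.30 without animals 4 and 7. Cyp7a1 and Cyp8b1, a later enzyme of the pathway's classical branch, did not pass either (r = 0.29, permutation test, adjusted p = 0.729). Without animals 4 and 7 their r was 0.55.

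Cholesterol and fatty acid synthesis were close in spread, with the median SDs of 0.343 and 0.342 given above. The cholesterol list's members act in sequence: Idi1 isomerizes the isoprene unit, Sqle and Lss make and close the sterol skeleton, Cyp51 and Msmo1 strip its methyl groups, and Insig1 is the feedback brake that holds SREBP in the endoplasmic reticulum. All 20 measured members were at log2 5 or more, and 7 had an SD of 0.5 or more. Their mean pairwise r was 0.45. Insig1 was at 8.66 ± 0.71, with its lowest, median and highest animals at 7.44, 8.84 and 9.69. Sqle, with an SD of 0.67, ran from 3.95 in animal 8 over 5.07 to 6.11 in animal 5. Idi1 ran from 6.06 in animal 1 over 7.12 to 7.73 in animal 5. Msmo1 ran from 7.52 in animal 8 to 9.06 in animal 5, and Cyp51 from 7.96 in animal 8 to 9.01 in animal 4, with animal 5 next. Animal 5 was thus at or near the top of each of these 4 enzymes.

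Idi1 and Sqle formed 1 of 5 pairs, out of 20 tested pairs of related genes, that passed an adjusted p of 0.05 (r = 0.77, rho = 0.79, permutation test with 100000 resamples, adjusted p = 0.0317). Without the 2 animals farthest from the Sqle median (5 and 8) r was 0.59, and without animal 1 it was 0.85. The pair no longer passed when animal 2, 4, 5, 6, 7, 8 or 9 was left out, with r from 0.70 to 0.78. With Sqle as the predictor of every other gene, limma called 0 of 13436 genes (0%), the smallest adjusted p being 0.067. Without adjustment 719 had a p under 0.05, close to the share of 0.05 of all tests that falls there with no association. These included 20 of the 60 most variable genes, a larger share, but some of the 60 vary together and are not separate tests. The genes nearest the threshold were sterol genes: Msmo1 had a slope of 0.70 ± 0.093 (SE) and r = 0.93, and Cyp51 a slope of 0.48 ± 0.067 and r = 0.96, both with a limma adjusted p of 0.067. Among genes of the opposite sign, the macrophage lysozyme Lyz2 had a slope of -0.44 ± 0.093 (limma adjusted p = 0.36).

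Promoter letters of 3 sterol genes are shown because Idi1 formed a passing pair with Sqle, Msmo1 had the smallest p on Sqle and Insig1 is among the most variable genes, and because CCAAT boxes, which bind NF-Y, are known companions of sterol elements. The sequences cover the bases from -200 to -1 before the gene's start, 5′ to 3′ on the gene's strand (RefSeq, GRCr8), and capitals mark CCAAT or its reverse complement ATTGG.
Idi1, GRCr8 chr17:66547525-66547724, minus strand: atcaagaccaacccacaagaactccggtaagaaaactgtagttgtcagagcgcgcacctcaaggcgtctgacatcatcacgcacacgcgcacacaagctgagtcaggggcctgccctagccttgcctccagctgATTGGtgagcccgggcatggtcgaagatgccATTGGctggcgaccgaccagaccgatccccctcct
Msmo1, GRCr8 chr16:29746913-29747112, plus strand: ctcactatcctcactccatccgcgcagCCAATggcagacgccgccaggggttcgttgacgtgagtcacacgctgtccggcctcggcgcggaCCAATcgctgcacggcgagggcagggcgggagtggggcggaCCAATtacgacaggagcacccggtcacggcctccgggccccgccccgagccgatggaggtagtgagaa
Insig1, GRCr8 chr4:8057770-8057969, minus strand: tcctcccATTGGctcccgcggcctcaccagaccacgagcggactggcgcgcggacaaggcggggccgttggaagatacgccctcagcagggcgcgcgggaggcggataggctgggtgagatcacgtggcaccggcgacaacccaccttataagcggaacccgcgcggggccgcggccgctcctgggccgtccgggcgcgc
Msmo1 held the box 3 times, at -173, -109 and -68 (first base), and Idi1 held it at -66 and -35. In the window from -250 to 50 bases after the start, 13 of the 16 list members with a RefSeq promoter held CCAAT on either strand, against 37.5% of 33469 promoters. The sterol element TCACNCCAC was found in none of the 16 on either strand and in 1.12% of all promoters. The E-box CACGTG was in 2 of the 16, Sc5d and Insig1, against 6.42%. The fatty acid synthesis genes held CCAAT in 9 of 14, the clock genes in 4 of 7 and the 60 most variable genes in 18 of 41 with a promoter. Cyp51, with the same limma adjusted p on Sqle as Msmo1, held no CCAAT on either strand in that window, and its letters are not shown. The CCAAT motif was added after the values were seen, and a match of letters is not a binding site.

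Of the fatty acid synthesis list, 16 of 21 measured members were at log2 5 or more. Fasn, the fatty acid synthase, was at 8.53 ± 0.65, with 7.29 in animal 10, 7.51 in animal 8 and 8.32 to 9.12 in the other 8. Its second probe set followed at r = 0.98. Acaca, the carboxylase before it, ran from 7.83 to 8.85 and followed Fasn at r = 0.85 (rho = 0.95, permutation test, adjusted p = 0.00933), with r = 0.78 without animals 8 and 10. Acly, which supplies acetyl-CoA, ran from 9.34 to 10.63 and followed at r = 0.83 (permutation test, adjusted p = 0.0315). That r was 0.44 without animals 8 and 10 and 0.95 without animal 1, so its size depends on the animals kept. The Acly pair did not pass without animal 2, 5, 8 or 10, and the Acaca pair not without animal 2 (r = 0.83). The desaturase Scd, from 10.26 to 11.88, did not pass (r = 0.64, adjusted p = 0.11), and without animals 8 and 10 r was 0.19. Scd was second lowest in animal 1 (10.42), and without that animal the Scd pair passed at r = 0.86. Srebf1, which codes for the factor that activates these genes, had an SD of only 0.22 at a mean of 9.31 and r = 0.35 with Fasn (adjusted p = 0.629).

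With Fasn as the predictor, limma called 0 of 13436 genes (0%). An unadjusted p under 0.05 was found for 743, again close to the share of 0.05 that arises with no association. These included 16 of the 60 most variable genes. The strongest positive slopes were those of Insig1 (0.96 ± 0.16, r = 0.88), Phlda3 (0.41 ± 0.079) and Hamp, the iron hormone hepcidin (0.64 ± 0.13), with limma adjusted p of 0.39, 0.54 and 0.54. The strongest negative slope was that of the dim gene Tspan8 (-0.50 ± 0.076, mean 2.69, limma adjusted p = 0.32). With Egr1 as the predictor limma called 0 genes (0%) as well, with no adjusted p below 0.99. The 334 genes at an unadjusted p under 0.05 were fewer than that share. They included 3 of the 59 others among the 60 most variable genes. None of the 5 leading positive genes for Egr1, from Vwf to Gfm2, was of the immediate-early list.

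**Figure D5:**
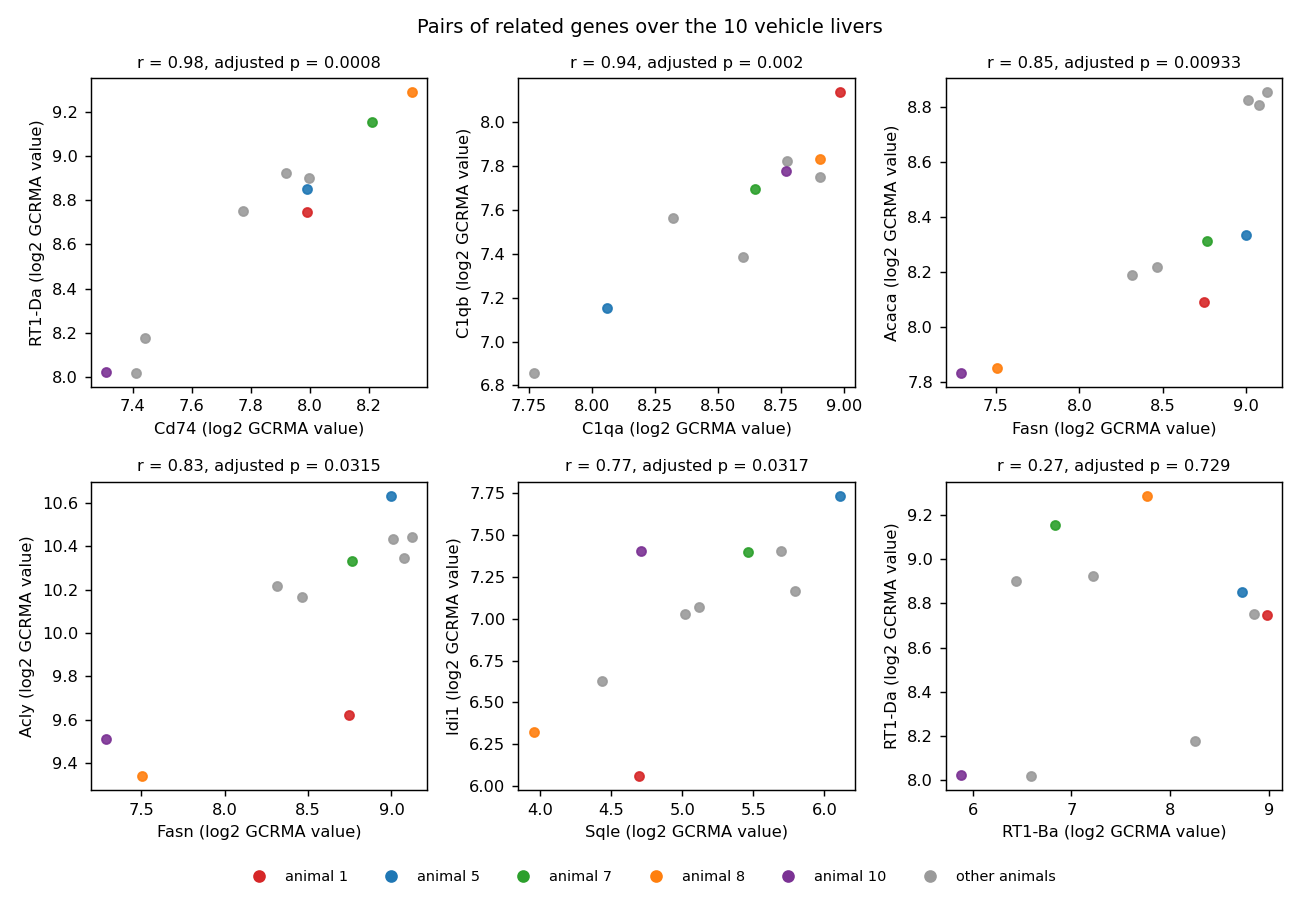
Log2 GCRMA values of 6 pairs of related genes, 1 point per vehicle animal, with animals 1, 5, 7, 8 and 10 coloured. The 5 pairs that passed are shown with RT1-Ba and RT1-Da, which did not (r = 0.27), and the Fasn panels show animals 8 and 10 apart at the low end.

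The remaining 2 pairs that passed belong to immune cells. Cd74, the chaperone of MHC class II (7.84 ± 0.35), and RT1-Da, a class II alpha chain (8.68 ± 0.45), had r = 0.98 (rho = 0.89, permutation test, adjusted p = 0.0008), and r = 0.96 without animals 2 and 10. Animals 2, 9 and 10 were the lowest for both genes and animal 8 the highest. The complement genes C1qa (8.57 ± 0.40) and C1qb (7.60 ± 0.37), which macrophages make, had r = 0.94 (adjusted p = 0.002), and 0.75 without animals 2 and 5. The genes most like C1qa at log2 5 or more were C1qc (r = 0.99), the Fc receptor gene Fcgr3a (0.96) and Tyrobp (0.95), also macrophage genes. Over the 10 Kupffer markers of mean 5 or more the mean pairwise r was 0.49, and over the 6 endothelial markers 0.046. RT1-Ba, whose probe sets disagreed, did not follow RT1-Da (r = 0.27, adjusted p = 0.729).

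The interferon response list had 12 of 25 measured members at log2 5 or more, 4 of them with an SD of 0.5 or more, and a mean pairwise r of 0.47. Oas1a, which makes oligoadenylates on sensing double-stranded RNA, had its lowest, median and highest animals at 4.11 (animal 5), 5.84 and 6.95 (animal 10). Usp18, which removes the ubiquitin-like ISG15, ran from 4.55 in animal 5 to 6.92 in animal 8. The genes most like Irf7, the list's transcription factor (6.36 ± 0.56), were Oas1a (r = 0.93), Usp18 (0.91), Ifi27 (0.88) and Isg15 (0.86). Ubd, also inducible by interferon, was not among them. Ubd, Oas1a and Usp18 all had their lowest value in animal 5.

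Of the clock list, 9 of 20 measured genes reached log2 5. Dbp (2.73 ± 0.32), Nr1d1 (1.87 ± 0.38), Per1 (2.92 ± 0.27) and Per3 (2.01 ± 0.26), whose transcripts peak in the day or early night in rat liver, all lay below it, while Nfil3 was at 8.17 ± 0.19 and Npas2 at 6.07 ± 0.30. Per2, a repressor of the clock, was at 5.49 ± 0.80, and its lowest, median and highest animals were at 3.72 (animal 10), 5.56 and 6.76 (animal 1). Without animal 10 its SD was 0.53. Cry1, its partner, ran from 5.75 in animal 8 over 6.91 to 7.52 in animal 1. Bmal1, the activator that peaks opposite to Per2, spread little (5.22 ± 0.27) and was not tied to Per2 (r = -0.08, permutation test, adjusted p = 0.861) or to Npas2 (r = 0.06, adjusted p = 0.861).

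Per2 served as the clock predictor because Dbp and Nr1d1 were below log2 5. Limma called 3 of 13436 genes (0.0223%) at an adjusted p under 0.05, and 2427 had an unadjusted p under 0.05. The called genes were the glutathione transferase Gstp3 (slope 0.46 ± 0.060, adjusted p = 0.034), Pusl1 (0.41 ± 0.056, adjusted p = 0.040) and Gtpbp10 (-0.51 ± 0.062, adjusted p = 0.034). Usp2, a clock-driven deubiquitinase, had the largest slope among the 5 leading positive genes (1.11 ± 0.17, limma adjusted p = 0.053) at a low mean of 3.84. Per2 was highest in animal 1, whose array stood apart, and limma called none without animal 1 or with the poly-A level as a covariate. The count was also 0 without animal 3, 6, 8, 9 or 10 in turn, and 1 without animal 2. The promoter of Per2 is shown for its D-box, the site of Dbp and its repressor Nfil3, with the D-box in capitals, from -200 to -1 on the gene's strand (RefSeq, GRCr8).
Per2, GRCr8 chr9:99496994-99497193, minus strand: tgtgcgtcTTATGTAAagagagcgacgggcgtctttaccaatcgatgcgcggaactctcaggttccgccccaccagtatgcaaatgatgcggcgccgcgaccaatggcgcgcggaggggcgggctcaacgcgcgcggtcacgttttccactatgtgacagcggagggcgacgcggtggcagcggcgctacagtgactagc
The D-box TTATGNAA or its reverse complement was found in this promoter alone of 7 clock genes with one in RefSeq, against 3.66% of all promoters, and the E-box CACGTG in those of Tef and Bhlhe40.

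The 2 array measures were set against all genes in the same way. On the poly-A level limma called 733 of 13437 genes (5.46%), 284 with a positive and 449 with a negative slope, and it called 0 without animal 1 and 252, 459 and 473 without animals 9, 3 and 4. On the actin difference it called 4 genes (0.0298%), and from 0 without animal 1 to 878 without animal 5. Among the 60 most variable genes, 1 was called on the poly-A level, Inmt (slope -2.02, limma adjusted p = 0.047), and none on the actin difference, nor on Per2, Egr1, Fasn or Sqle. The 1 of 60 called on the poly-A level stands against 5.46% of all genes, many of them dimmer than the 60. When only the 5199 genes of mean log2 5 or more were tested, 1046 were called on the poly-A level, a larger share than over all genes. An unadjusted p under 0.05 was found for 1975 of those 5199, and for 5 of the 60 in the run over all genes. The most variable genes thus had a smaller share than genes of that level.

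The limit of log2 5 decides which genes are described. Just above it were Evc (5.05 ± 1.29), Cxcl1, a neutrophil-attracting chemokine (5.01 ± 1.12, from 3.15 to 6.88), and Sqle. Just below it were Cib2 (4.99 ± 1.59), the MHC class I gene RT1-N2 (4.99 ± 1.49) and Tifa (4.91 ± 0.86). Below log2 5, 18 genes had an SD of 1 or more, led by Acsm5 (4.09 ± 1.94), a medium-chain acyl-CoA synthetase, and Fam111a (4.35 ± 1.76), and they included Pnpla3 (4.60 ± 1.53), a lipid droplet protein that SREBP and ChREBP induce.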

How the data were processed

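Liver RNA of 40 rats in 4 groups was measured on 1 array each, and only the 10 arrays of the vehicle group, so named by the labels, were used. The authors deposited 1 log2 value for each probe set and array. Per the submitters' processing notes they used Partek and GCRMA, of unstated version. GCRMA subtracts a background estimated from probe sequence, so dim probe sets sit near a floor and differences from it depend on that step. Precision is limited by having 10 arrays, since arrays carry no read depth. Nothing in the labels gives a scan date or batch.

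The platform annotation gave 1 symbol to 19062 of the 31139 probe sets and several to 573, while 11407 were unnamed here and 97 were controls. Symbols were updated through Entrez numbers (18983 matched a RefSeq table of GRCr8, used for names). Each gene was represented by its brightest probe set on average over the 10 vehicle arrays, leaving 13437 genes, 3985 with more than 1 probe set.

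Slopes on each predictor were fitted with limma 3.58.1 (lmFit, eBayes, 8 residual degrees of freedom, R 4.3.3), two-sided, with Benjamini-Hochberg adjustment over all genes. Of 48 listed pairs of related genes, the 20 with both means at log2 5 or more had two-sided permutation tests (100000 resamples), adjusted over the 20. Python 3.11.15 with scipy 1.17.1 did the rest. Scripts were tested on simulated data. Replicates are separate animals. The text names the 25 brightest genes, the 40 with the largest SD, the 10 with the smallest, members of co-varying sets, the leading 5 slopes in each direction, up to 4 members per list by SD and by mean, pair genes, neighbours of the limit and the 4 most alike genes. It shows only some of these, chosen after their values were seen, and passes over LOC and RGD symbols. Genes of lists below log2 5 (Nr4a1, Atf3, Per1, Per3), the second or later genes of a list beyond that rule, and the low-level genes Acsm5, Fam111a and Pnpla3 were added after their values were seen. The members and lists were chosen with earlier results of these data known. Alternatives were quantile normalization, a median shift, the filter at log2 5, another probe set, each animal left out, the poly-A level as a covariate, ranks and Spearman's rho.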

Additional observations from a re-analysis of the deposited data

Results flagged for a closer look

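Among 10 animals, a sample was marked where its gap to the next exceeded Dixon's 95% critical share of the whole range, which chance gives in about 1 of 20 groups. Of the 5199 genes, 811 (15.6%) were so marked, and animal 1 was the outlying one in 685 of them. Among the 60 most variable genes there were 6, of which 1 had animal 1 as the outlying one.

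Animal 1 was outlying in 3 array measures, with gap shares of 0.556 for the poly-A level, 0.505 for the actin 3 prime minus 5 prime difference and 0.688 for the mean correlation with the other arrays. It was also the outlying animal for Inmt (0.618, low) and for Vtn, the adhesion protein vitronectin (0.507, high at 12.75 against 12.46 to 12.61 in the others). Inmt was called on the poly-A level (slope -2.02, limma adjusted p = 0.047), and on the actin difference its limma adjusted p was 0.051. No gene was called on either measure without animal 1. The part of labelling or RNA quality in these values was not tested beyond such slopes.

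Animal 10 was low for Nqo1 (0.661), Myc (0.532) and Gstp3 (0.467). Animal 8 was low for Bco1 (0.666) and for Ahsg (0.572, at 12.33 with a median of 12.50). Animal 7 was low for Cyp4v3 (0.869) and animal 5 for Bcl6 (0.470). The dim gene Nr4a1 had a low animal 4 (0.470).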

How the results depend on the processing

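The counts that rest on level and spread kept within 1.5 times under each alternative run: genes of mean 5 or more were 5183 to 5204 and genes with an SD of 1 or more 22 to 29 with 1 animal left out. Calls by limma did not. With 1 animal left out, calls on the poly-A level ranged from 0 to 828, on the actin difference from 0 to 878, on Per2 from 0 to 4, on Sqle from 0 to 1 and on Egr1 and Fasn were 0, passing pairs ranged from 2 to 6 and the share of strong pairs among the 60 most variable genes from 1.69% to 3.90%. On the actin difference there were 2 calls after quantile normalization, 127 after the median shift, 260 among genes of mean 5 or more and 38 with the probe set of the largest SD. Per2 had 9 after quantile normalization and 0 with the poly-A covariate, Fasn 1 with that covariate, and Sqle 2 among genes of mean 5 or more. The cause of these changes was not tested, except that the filter tests fewer genes and leaving out an animal uses fewer. Of 43 other probe sets of the named genes, 22 gave an SD outside the first one's 95% interval, and leaving out 1 animal did so in 19 of 1410 cases. No paired analysis was possible because only the vehicle group was used. The depth limit here is signal over background, which GCRMA's floor sets.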

Other observations

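Probe sets that could not be named were not used above. Of these, 1005 had a mean of log2 5 or more, with a median SD of 0.258. An SD of 1 or more was found in 6 (0.597%), the largest being 1.83.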
